A study of Homo sapiens with 6 samples.

Results

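This is an account of 10 genes linked to the mesenchymal state, in ES2 cells with the enzyme gene UAP1 knocked down. They were matched by symbol in a table of 58735 genes: the transcription factor genes SNAI1, SNAI2, TWIST1, TWIST2, ZEB1 and ZEB2, and FN1, FAP, TPM1 and S100A4. All 10 had enough counts to be tested, among 15768 such genes. ES2 is a human ovarian cancer cell line, labelled as high-grade serous carcinoma, and both groups were grown in DMEM with serum and transfected with a lipid reagent, and all are labelled wild type. The control group of 3 libraries received 1 control siRNA, and the siUAP1 group of 3 libraries received UAP1 siRNAs, of which the labels list 2 without saying whether they were pooled. RNA was taken 48 hours after transfection, so the series describes a transient knockdown in 1 line.

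Cells in the mesenchymal state lack tight epithelial junctions and carry a matrix- and actin-rich machinery for movement. The SNAI proteins (Snail and Slug) and the ZEB proteins are zinc finger repressors that bind E-box sequences in the promoters of epithelial genes such as that of E-cadherin, and the TWIST proteins are basic helix-loop-helix factors that bind E-boxes as dimers. Fibronectin (FN1) is a matrix glycoprotein bound by integrins, fibroblast activation protein (FAP) is a surface serine protease of activated fibroblasts, tropomyosin 1 (TPM1) lies along actin filaments, and S100A4 is a calcium-binding protein that acts on non-muscle myosin. UAP1 makes UDP-GlcNAc, the sugar donor for N-glycans and O-GlcNAc.

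E-boxes of the kind bound by SNAI and ZEB proteins are shown first, because the epithelial genes described further on are known for them. The word searched was CACCTG, on both strands (CAGGTG on the other), which is a special case of the general E-box CANNTG. The windows were those of RefSeq on GRCh38.p14, from 250 bases before to 50 after each transcript start, and the word stood in 20.6% of 35116 windows. In the epithelial list, 16 of 33 genes had windows, and 12 of these genes held the word. By window, the word stood in 14 of 24 (58.3%), some of which overlap because they belong to neighbouring starts of 1 gene. Among the 10 genes, 6 had windows (12 in all, 7 of them of ZEB1), and 3 windows held the word, 2 of ZEB1 and 1 of S100A4. Examples are given 5′ to 3′ on the gene's strand, with 1 matched word in capitals; the CLDN7 and JUP stretches hold a further match in small letters. CANNTG, the general form, stood in 68.7% of all windows, 75% of the epithelial ones and 6 of the 12 windows of these genes.
CRB3, a polarity gene (chr19:6464112-6464141, plus strand): ggggtcccgttaCAGGTGcgcccacagcgc
CLDN7, a claudin gene (chr17:7262481-7262510, minus strand): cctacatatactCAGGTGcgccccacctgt
OCLN, the occludin gene (chr5:69492502-69492531, plus strand): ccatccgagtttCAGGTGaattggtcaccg
JUP, the plakoglobin gene (chr17:41786013-41786042, minus strand): cgactctggcccCACCTGccgagcaggtga
ZEB1 (chr10:31318348-31318377, plus strand): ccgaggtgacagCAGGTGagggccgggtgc
S100A4 (chr1:153545953-153545982, minus strand): cccacgggtgccCACCTGggaacaggaggc
The FN1 window held no E-box of this kind but a cyclic AMP response element, TGACGTCA, found in 1.85% of all windows. It was singled out after the sequence was seen, and is shown because FN1 is the most abundant of the 10.
FN1 (chr2:215436233-215436262, minus strand): acagtcccccgTGACGTCAcccggagcccg
The AP-1 word TGANTCA stood in none of the 12 windows of these genes (7.71% of all windows), and the TEAD word CATTCC in 1 (14% of all windows). A match is a description of letters, not a measured site.

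With UAP1 lowered, SNAI2, FAP, TPM1 and FN1 rose and ZEB1 fell when siUAP1 was compared with control within replicate numbers. FAP changed the most, by 1.97-fold, followed by SNAI2 (1.42-fold), TPM1 (1.34-fold) and FN1 (1.14-fold), while ZEB1 fell to 0.828 of control. SNAI1, TWIST1, TWIST2, ZEB2 and S100A4 did not pass the test. In that fit (edgeR with the replicate number as a block, 3 pairs) 4 of the 10 genes rose, where 9.07% of all tested genes rose, and 1 fell, where 7.14% fell. Either direction was called in 16.2% of all tested genes. The 10 genes and the lists below were chosen with earlier results of these data known, so such shares are a description only. In the fit on groups alone, edgeR called 0 of the 10 at an adjusted p under 0.05, where it called 0.108% of tested genes (0.0317% higher and 0.0761% lower). In that fit 3 of the 10 had an unadjusted p under 0.05, where 7.13% of tested genes had one. DESeq2 and limma-voom without pairs also called 0 of the 10. Rose and fell below refer to the fit with pairs, and each adjusted p is over all tested genes. Calls that ended without a pair are given below. Leaving out a pair also lowered the calls over all tested genes, from 2556 to 2204, 1987 and 1195 without pair 1, 2 and 3.

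**Figure D1:**
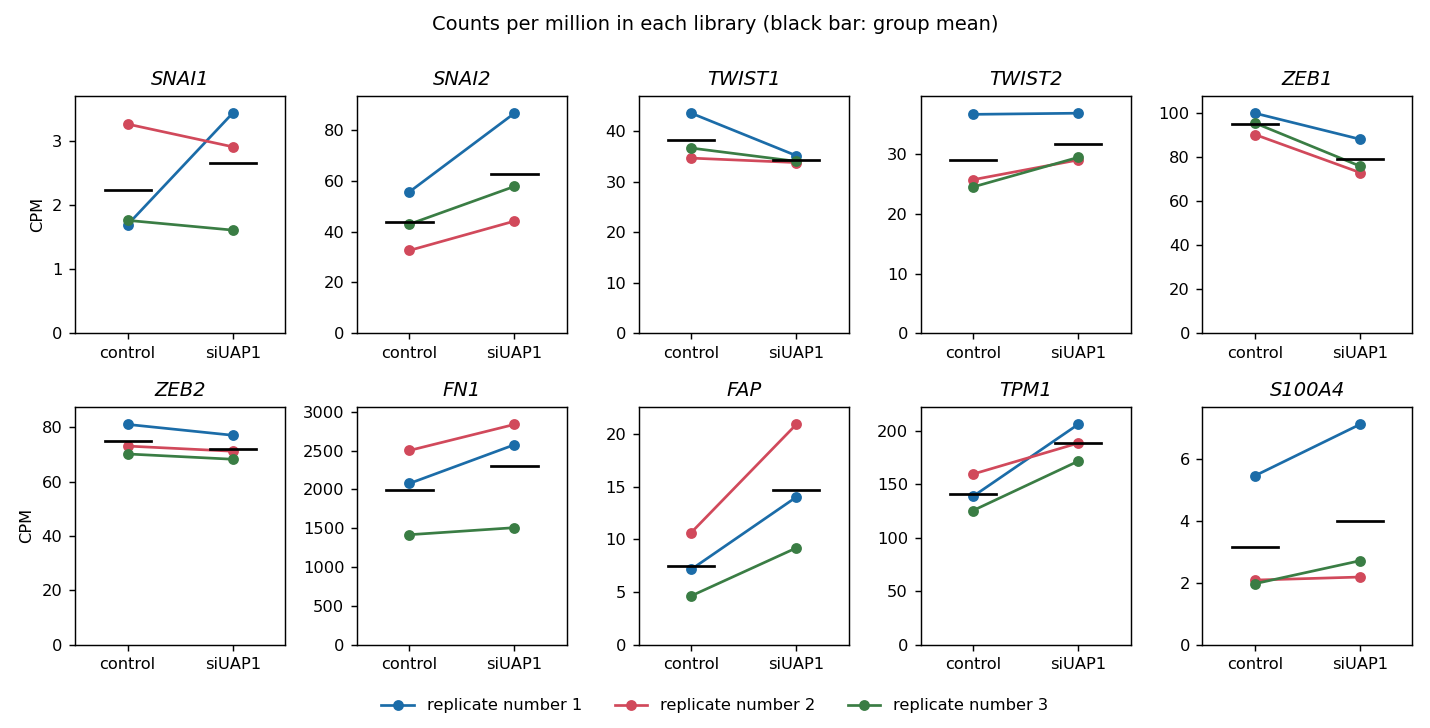
CPM (vertical axis, starting at 0) of the 10 genes in the 3 control and 3 siUAP1 libraries. Points joined by a line share a replicate number and black bars are group means. FAP, SNAI2, FN1, TPM1, TWIST2 and S100A4 rise along all 3 lines, and ZEB1, ZEB2 and TWIST1 fall along all 3. For FAP, SNAI2 and FN1 the levels of the lines stay apart. The same direction in all 3 pairs was seen in 47% of all tested genes.

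Library totals ran from 21267240 to 25972582 counts, and mitochondrial transcripts took 4.23% to 6.02% of them. UAP1 itself lay at 345 to 444 CPM (counts scaled to library size, with TMM factors) in control libraries and at 21.8 to 25.2 CPM in siUAP1 libraries. Libraries of the same replicate number deviated from their group means together, which is why the pairs are used. The labels name no block, and the fit on groups alone was set as the main test, with the pairs as an alternative. Of 10 serous carcinoma markers, MUC16, SOX17, FOLR1 and WFDC2 had 0 counts in every library, which allows up to 0.141 CPM in the shallowest. PAX8 lay at 1.01 and WT1 at 2.02 CPM in control, and KRT7 at 337 CPM. No leukocyte marker of 8 was testable, and their summed level was 0.329 to 0.668 CPM in control and 0.275 to 1.09 CPM in siUAP1 libraries, with CD3E, MS4A1, ITGAM and TYROBP at 0. In such bulk RNA, fewer cells of a type and less RNA per cell cannot be told apart.

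Among the Snail family genes, SNAI2 was the abundant one and it rose. SNAI2 (ENSG00000019549, GRCh38 chromosome 8, 48917604 to 48921740, minus strand), which encodes Slug, lay at 55.7, 32.6 and 43 CPM in control libraries 1 to 3 and at 86.7, 44.2 and 57.8 CPM in siUAP1 libraries 1 to 3. The groups overlapped, since siUAP1 library 2 lay below control library 1, but each siUAP1 library lay above the control of its number. All 3 pairs had the same direction in 47% of all tested genes. The log2 differences were 0.64, 0.44 and 0.43 in pairs 1 to 3. The means were 43.8 ± 11.6 CPM in control and 62.9 ± 21.7 CPM in siUAP1 (SD, n = 3). On the log2 scale SNAI2 rose by 0.50 with pairs (SE 0.0608, edgeR adjusted p = 1.24e-06), and without pairs its value was 0.52 (SE 0.258, adjusted p = 0.771). No other gene's exons overlap SNAI2 in the annotation.

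SNAI1 (ENSG00000124216, chromosome 20, 49982999 to 49988886, plus strand), which encodes Snail, was scarce. It had 36, 83 and 43 counts in control and 82, 76 and 41 counts in siUAP1 libraries. Counting error alone gives 36 counts a 95% Poisson interval of 25.2 to 49.8. Its level ran from 1.69 to 3.26 CPM in control and from 1.61 to 3.43 CPM in siUAP1, so the groups overlapped over nearly their whole range. Pair 1 was 0.99 higher on the log2 scale, and pairs 2 and 3 were -0.16 and -0.12. With pairs the log2 fold change was 0.23, with a 95% interval of -0.30 to 0.76 (SE 0.257, edgeR adjusted p = 0.626). That interval includes the value found for SNAI2, and whether both genes responded differently was not tested. Without pair 1 the value was -0.15.

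The TWIST genes did not pass the test in either fit. TWIST1 (ENSG00000122691, chromosome 7, 19020991 to 19117672, minus strand) lay at 43.5, 34.6 and 36.6 CPM in control and at 35.1, 33.8 and 34 CPM in siUAP1 libraries. The 3 siUAP1 values lay within 1.04-fold of each other, the smallest spread among the 10 genes, and overlapped the lowest control. All 3 pairs were lower (-0.31, -0.04 and -0.11), for a log2 fold change with pairs of -0.15 (95% interval -0.30 to -0.006, SE 0.0703, edgeR adjusted p = 0.159). Without pair 1 the value was -0.07. TWIST2 (ENSG00000233608, chromosome 2, 238848032 to 238910543, plus strand) lay at 36.6, 25.7 and 24.5 CPM in control and at 36.8, 29 and 29.4 CPM in siUAP1 libraries. Replicate number 1 was the high one in both groups, and the pairs differed by 0.01, 0.17 and 0.26. Its log2 fold change was 0.15 (95% interval -0.008 to 0.30, SE 0.0746, adjusted p = 0.206), and 0.09 without pair 3.

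ZEB1 was the only one of the 10 genes that fell, and the only one whose siUAP1 libraries all lay below all control libraries. ZEB1 (ENSG00000148516, chromosome 10, 31318495 to 31529814, plus strand) lay at 99.7, 90.1 and 95.3 CPM in control and at 88, 72.8 and 75.8 CPM in siUAP1 libraries. Such separation downward was seen in 5.71% of tested genes. The pairs differed by -0.18, -0.31 and -0.33. The means were 95 ± 4.84 and 78.9 ± 8.02 CPM (SD, n = 3), and the log2 fold change was -0.27 with pairs (SE 0.0521, edgeR adjusted p = 0.000509) and -0.27 without (SE 0.103, adjusted p = 0.599). Exons of the antisense gene ZEB1-AS1, at 8.97 CPM, cover 4.23% of ZEB1's exon bases. The labels do not say whether the counting used strand, and ZEB1 is uncertain to that extent. Antisense genes also share exon bases with TWIST1 (6.94%), ZEB2 (5.18%) and FAP (9.11%), but lay at 0.272 CPM or lower.

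ZEB2, its paralogue, was nearly level. ZEB2 (ENSG00000169554, chromosome 2, 144364364 to 144524583, minus strand) lay at 81.1, 73.1 and 70.2 CPM in control and at 77.1, 71.2 and 68.3 CPM in siUAP1 libraries. The order of the replicate numbers was the same in both groups, and the pairs differed by -0.07, -0.04 and -0.04. The log2 fold change with pairs was -0.05, and its 95% interval of -0.16 to 0.06 did not include the value of ZEB1 (SE 0.0522, edgeR adjusted p = 0.59). The difference between both genes' changes was itself not tested.

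FAP showed the largest change of the 10. FAP (ENSG00000078098, chromosome 2, 162170684 to 162245151, minus strand) had 152, 271 and 113 counts in control and 335, 547 and 234 counts in siUAP1 libraries, which made 7.15, 10.7 and 4.63 CPM against 14, 20.9 and 9.19 CPM. Replicate number 2 was high and number 3 low in both groups, and the groups overlapped, since control library 2 lay above siUAP1 library 3. Within pairs the log2 differences were 0.96, 0.97 and 0.98. The means were 7.48 ± 3.03 and 14.7 ± 5.91 CPM (SD, n = 3), and the log2 fold change was 0.98 with pairs (95% interval 0.75 to 1.21, SE 0.112, edgeR adjusted p = 6.18e-07) and 0.98 without (SE 0.354, adjusted p = 0.554). In DESeq2 without pairs its adjusted p was 0.102.

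FAP is known as a marker of activated fibroblasts. Of 9 fibroblast and stromal markers 6 were testable, with a median of 0.90, and 3 rose, where 9.07% of all tested genes rose. The 3 were COL1A1 (0.85), PDGFRB (0.95, SE 0.13) and COL1A2 (1.86, SE 0.537). COL1A1 took most of the list's summed level, which was 816 to 1533 CPM in control and 1401 to 2442 CPM in siUAP1 libraries. PDGFRB, a growth factor receptor of stromal cells, went from 7.45 ± 3.19 to 15.1 ± 8.96 CPM (SD, n = 3). COL1A2 had only 64 counts over the 6 libraries, and its call ended without pair 2 (adjusted p = 0.11) or pair 3 (0.079). The other testable markers were not called, PDGFRA at -0.14 (46.3 ± 11.9 and 42.2 ± 11.7 CPM, adjusted p = 0.182), THY1 at 0.26 (0.135) and POSTN at 1.2 on 48 counts (0.213). The stromal proteoglycan gene DCN had 0 counts in every library, LUM had 7 and COL3A1 had 10 counts over all 6. All libraries are titled as ES2 cells alone, and whether any of this RNA came from other cells was not tested.

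Of the genes of FAP's own protease family and its known surface partners, 10 of 13 were testable, and 2 rose and 3 fell. Over all tested genes 9.07% rose and 7.14% fell. The integrin genes ITGA3 (0.51, SE 0.0466) and ITGB1 (0.31, SE 0.0477), whose dimer associates with FAP at invadopodia, rose. The urokinase receptor gene PLAUR, also a FAP partner, fell from 156 ± 18.4 to 111 ± 21 CPM (-0.50, SE 0.051, edgeR adjusted p = 8.55e-08). The dipeptidyl peptidase gene DPP9 fell (-0.31, SE 0.0482), and so did PREPL (-0.20), whose call ended without pair 2 (adjusted p = 0.073) or pair 3 (0.14). DPP4, the closest relative of FAP, had 6 counts in all. The list's median was -0.04, beside -0.0029 over all tested genes.

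TPM1 rose and its groups did not overlap. TPM1 (ENSG00000140416, chromosome 15, 63042632 to 63071915, plus strand) lay at 139, 159 and 125 CPM in control and at 206, 188 and 171 CPM in siUAP1 libraries. Such separation upward was seen in 6.74% of tested genes. The pairs differed by 0.57, 0.24 and 0.45. The means were 141 ± 17.2 and 188 ± 17.2 CPM (SD, n = 3), with a log2 fold change of 0.42 in both fits (SE 0.0541 and edgeR adjusted p = 3.29e-06 with pairs, SE 0.118 and adjusted p = 0.345 without). TPM1 makes high and low molecular weight tropomyosins from 19 annotated coding transcripts, which gene counts do not tell apart. The antisense gene TPM1-AS, at 0.505 CPM, covers 16.1% of its exon bases.

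Of the other tropomyosin genes, TPM3 also rose, from 446 ± 86 to 531 ± 81.5 CPM (0.26, SE 0.0471, edgeR adjusted p = 0.000288). TPM4 was at -0.13 (adjusted p = 0.0669) and TPM2 at -0.08 (0.62), neither past the threshold. Of 22 tropomyosin and thin filament partner genes, 17 were testable, of which 2 rose (TPM3 and the caldesmon gene CALD1, 0.15), 1 fell (the non-muscle myosin gene MYH10, -0.19) and 14 were not called. These 3 calls among 17 genes are a share near the 16.2% of all tested genes. CALD1 was not called without any 1 of the pairs (adjusted p 0.1 to 0.13), nor MYH10 without pair 3 (0.17). The list's median was -0.03.

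FN1 was by far the most abundant of the 10 and rose by a small step. FN1 (ENSG00000115414, chromosome 2, 215360440 to 215436172, minus strand) lay at 2078, 2503 and 1417 CPM in control and at 2577, 2839 and 1507 CPM in siUAP1 libraries. Both libraries of replicate number 3 lay below all 4 others, so the groups overlapped widely. The pairs differed by 0.31, 0.18 and 0.09, with means of 1999 ± 548 and 2308 ± 706 CPM (SD, n = 3). The log2 fold change with pairs was 0.19 (95% interval 0.09 to 0.30, SE 0.0506, edgeR adjusted p = 0.00883), and without pairs 0.21 (SE 0.258, adjusted p = 0.972). Without pair 3 the value was larger, at 0.245, but so was its error (SE 0.0851), and the call ended (edgeR adjusted p = 0.102). Splice forms of fibronectin, from 13 annotated coding transcripts, were not told apart.

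Receptors of fibronectin and proteins that help build its fibrils rose almost throughout. Of 17 genes 12 were testable, and 11 of the 12 rose, where 9.07% of all tested genes rose. This list, too, was chosen with earlier results known, and its share is not a test of the list. ITGB8 (-0.16, edgeR adjusted p = 0.242) was the one not called. The list's median was 0.44, beside -0.0029 over all tested genes. ITGA5, whose product pairs with integrin beta 1 in the main fibronectin receptor, rose from 179 ± 14.8 to 283 ± 20.3 CPM (0.66, SE 0.046, adjusted p = 1.39e-10). ITGB5 (0.72, SE 0.0472), ITGA4 (0.62, SE 0.0565) and the syndecan gene SDC4 (0.64, SE 0.0555), a coreceptor of fibronectin, rose too.

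S100A4 (ENSG00000196154, chromosome 1, 153543613 to 153550136, minus strand) was set apart by replicate number rather than by siRNA. It had 116, 53 and 48 counts in control and 170, 57 and 69 counts in siUAP1 libraries, or 5.46, 2.08 and 1.97 CPM against 7.12, 2.18 and 2.71 CPM. Both libraries of replicate number 1 stood above all 4 others. The pairs differed by 0.38, 0.06 and 0.45, and the log2 fold change with pairs was 0.32 (95% interval -0.09 to 0.72, SE 0.197, edgeR adjusted p = 0.321). Without siUAP1 replicate 1, the fit on groups alone turned to -0.37.

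Among the other S100 genes, which lie mostly beside S100A4 on chromosome 1, 9 of 18 were testable. Both counts include S100PBP, which encodes an S100P-binding protein and is not itself an S100 gene. S100A10, the annexin A2 partner, rose from 83.3 ± 6.7 to 108 ± 15.1 CPM (0.37, SE 0.0562, edgeR adjusted p = 3.06e-05). S100A11 (0.32, SE 0.0487, adjusted p = 2.71e-05) rose too, with means of 107 ± 8.06 and 134 ± 15.1 CPM. The other 7 were not called, among them the abundant S100A6 (0.02, SE 0.046) and S100A16 (-0.04, SE 0.0564). Beside these 2 calls among 9 testable genes, 9.07% of all tested genes rose and 16.2% were called in either direction. The list's median was 0.04.

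**Figure D2:**
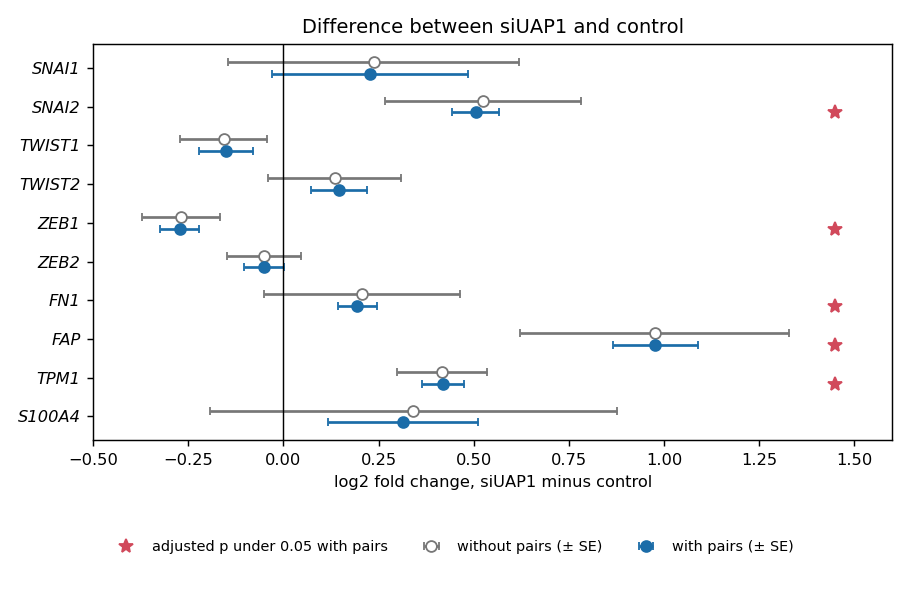
Log2 fold change (horizontal axis, siUAP1 minus control) of the 10 genes with its standard error, in the fit without pairs (open circles) and with pairs (filled circles). The values of both fits lie close together while the errors with pairs are smaller, and stars mark the 5 genes with adjusted p under 0.05 with pairs.

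The 10 genes differed between replicate numbers as well as between groups. A gene's sum of squares of log2 CPM over the 6 libraries was divided into a share of the siRNA group, a share of the replicate number and a remainder. The replicate number took the larger share in 7 of the 10 genes, as it did in 78.4% of all tested genes. It took 94.3% for S100A4, 92.3% for FN1, 90.2% for ZEB2, 83.7% for TWIST2 and 66.1% for SNAI2. For TPM1 and ZEB1 the siRNA group took the larger share, 73.6% and 68.2%, and for FAP the shares were nearly equal at 50.1% for the group and 49.9% for the number. Over all tested genes the medians were 12.4% for the group and 65.6% for the number. Numbers did not rank alike across genes: in both groups number 1 was highest for SNAI2, TWIST1, TWIST2, ZEB1, ZEB2 and S100A4, and number 2 for FN1 and FAP. Libraries of 1 number carry a common code in their names, which the labels do not explain.

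**Figure D3:**
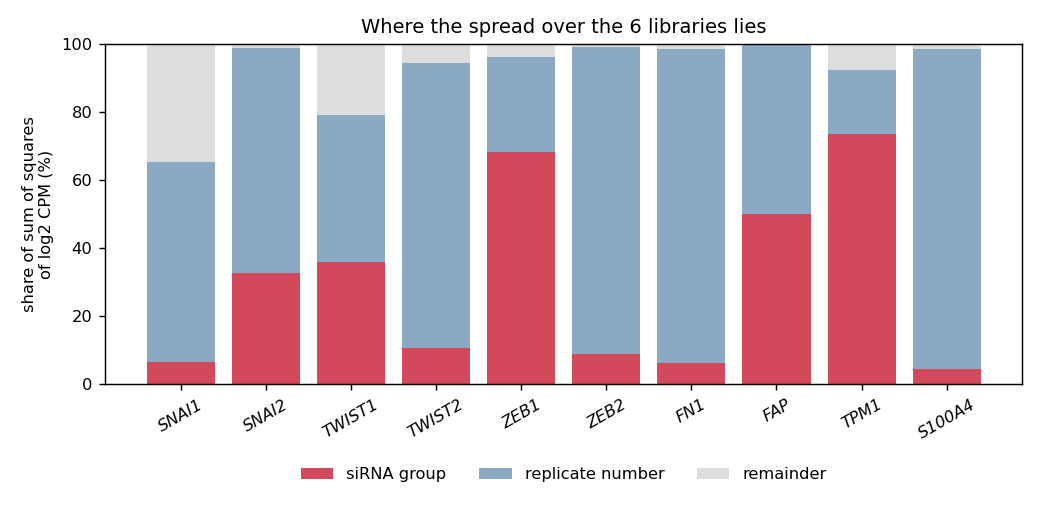
Share (%) of each gene's sum of squares of log2 CPM over the 6 libraries that falls to the siRNA group, the replicate number and the remainder. The replicate number takes over 90% for S100A4, FN1 and ZEB2, and the siRNA group takes the most for TPM1 and ZEB1.

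Levels were compared between genes on the FPKM scale, which divides by exon length. In control libraries FN1 lay highest at 114 ± 30.9 FPKM (SD, n = 3), above 98.1% of tested genes, and 6.13 times above the next. TWIST1 (18.7 ± 2.31), TWIST2 (15.3 ± 3.55), SNAI2 (12.8 ± 3.41), ZEB1 (10.9 ± 0.59) and TPM1 (10.9 ± 1.27 FPKM) followed, each overlapping its neighbour in that order over the 3 libraries. S100A4 (3.07 ± 1.92) and ZEB2 (2.96 ± 0.225) came next and overlapped, and SNAI1 (1.32 ± 0.515) and FAP (1.06 ± 0.424 FPKM), which also overlapped, were lowest. In siUAP1 libraries SNAI2 stood second in the order, at 18.3 ± 6.3 FPKM, but overlapped TWIST2 (16.7 ± 2.29), and FAP stood above SNAI1 (2.08 ± 0.838 against 1.56 ± 0.55 FPKM), also overlapping. The lengths count every annotated exon, 25058 bases for ZEB2 with its 48 transcripts, so that the FPKM of a gene whose cells use shorter forms is understated.

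**Figure D4:**
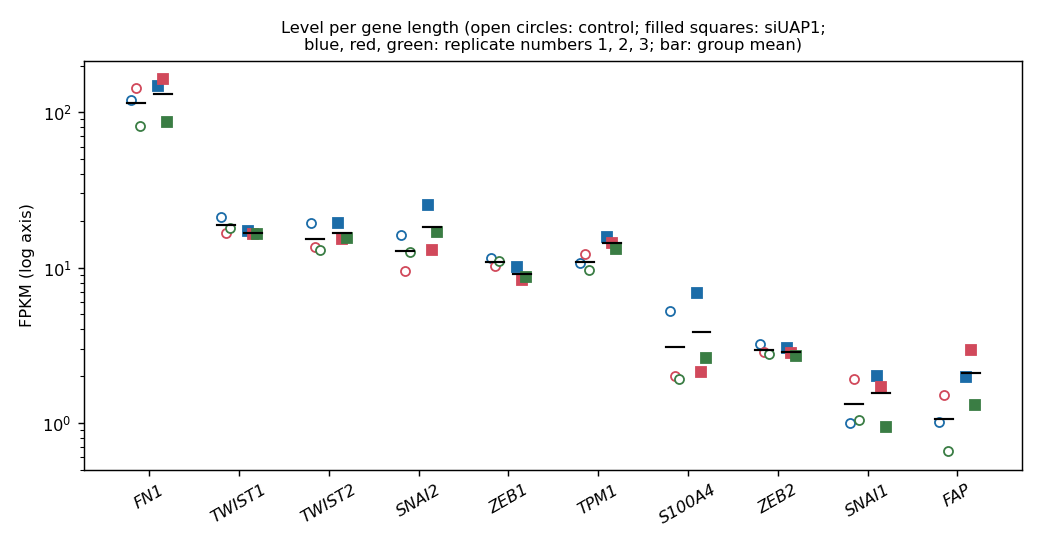
FPKM (log axis) of the 10 genes, ordered by their control mean, in each control library (open circles) and siUAP1 library (filled squares), with group means as bars. FN1 lies between 81.4 and 163 FPKM, and TWIST1, TWIST2, SNAI2, ZEB1 and TPM1 lie between 8.35 and 25.2 FPKM. SNAI1 and FAP have the lowest group means, but FAP overlaps ZEB2 and S100A4 in siUAP1 libraries.

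Partners of these factors were tested next, from lists of related genes. TWIST proteins dimerise with E proteins and are held off them by the ID proteins. Of 7 such genes 5 were testable, and 1 rose and 1 fell, where 9.07% of all tested genes rose and 7.14% fell. ID1 rose from 20.1 ± 6.99 to 29.6 ± 7.93 CPM (0.57, SE 0.0867, edgeR adjusted p = 2.98e-05), and the E protein gene TCF3 fell from 161 ± 15 to 140 ± 5.43 CPM (-0.20, SE 0.0485, adjusted p = 0.00457), a call that ended without pair 3 (0.075). TCF4 (0.22), TCF12 (0.09) and ID3 (0.09) were not called.

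Among 16 genes for corepressors that SNAI and ZEB proteins recruit, all testable, 2 rose and 3 fell, with a median of -0.03. Over all tested genes 9.07% rose and 7.14% fell. The histone deacetylase gene HDAC1 rose from 105 ± 5.38 to 141 ± 18.2 CPM (0.43, SE 0.0526, edgeR adjusted p = 1.79e-06), and the LIM protein gene AJUBA rose by 0.34 (SE 0.0465). RCOR1, a scaffold for the demethylase KDM1A, fell from 51.8 ± 1.29 to 38.6 ± 4.16 CPM (-0.43, SE 0.0673, adjusted p = 5.02e-05). The Polycomb gene SUZ12 fell by 0.31 on the log2 scale (SE 0.0516), and LIMD1 by 0.22, a call that ended without pair 1 (adjusted p = 0.078). KDM1A (0.02), EZH2 (0.03) and CTBP1 (-0.08) were not called.

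Snail and its relatives are short-lived proteins, and 23 genes for their kinases, ubiquitin ligases and stabilisers were testable. Of these, 2 rose, 2 fell and 19 were not called, with a median of 0.03, and the 4 calls are a share near the 16.2% of all tested genes. LOXL2, which stabilises Snail, rose from 421 ± 56.8 to 537 ± 101 CPM (0.34, SE 0.0477, edgeR adjusted p = 9.94e-06), and the phosphatase gene CTDSP2 rose (0.16, SE 0.0461). FBXW11 (-0.26, SE 0.0492) and BTRC (-0.25, SE 0.0633), which encode the beta-TrCP ligases that recognise phosphorylated Snail, fell. These 3 smaller calls ended without pair 3 (adjusted p 0.064 for FBXW11, 0.12 for BTRC and 0.13 for CTDSP2), and that of CTDSP2 also without pair 1 (0.053). The Snail kinase gene GSK3B was at -0.01 (SE 0.0509, adjusted p = 0.919). Only transcripts were measured, so nothing is known here of the proteins.

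Of 12 other transcription factor genes of the mesenchymal state 9 were testable, with a median of 0.02. Of these, 1 rose and 1 fell, where 9.07% of all tested genes rose and 7.14% fell. ETS1 rose from 223 ± 11.6 to 270 ± 24.8 CPM (0.27, SE 0.0558, edgeR adjusted p = 0.00111), and SOX9 fell (-0.18, SE 0.0565, adjusted p = 0.0267). Without pair 3 neither was called (adjusted p = 0.096 and 0.38), nor was SOX9 without pair 2 (0.087). PRRX1 (-0.09) and HMGA2 (0.15) were not called, and GSC and KLF8 had 0 counts in every library.

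Epithelial genes known as targets of SNAI and ZEB repressors were mostly silent in both groups. Whether these factors repress them in ES2 cells was not tested. Of 33 genes, 20 had too few counts to be tested, none of these more than 38 counts over the 6 libraries. CDH1, which encodes E-cadherin, had 1 count in all, EPCAM had 6, CRB3 had 1 and JUP had 3. CLDN7, whose E-boxes are shown above, averaged 0.397 CPM in control libraries and 0.485 CPM with siUAP1, and OCLN 5.47 ± 0.725 and 6.84 ± 0.863 CPM (0.32, edgeR adjusted p = 0.189). Of the 13 testable genes 3 rose and 10 were not called, and the median was 0.08. Of all tested genes 9.07% rose, and 16.2% were called in either direction. The keratin genes KRT8 (152 ± 36.1 to 266 ± 99.1 CPM; 0.78, SE 0.0555, adjusted p = 2.39e-10) and KRT18 (362 ± 60.2 to 515 ± 124 CPM; 0.50, SE 0.0494) rose. They overlap each other on opposite strands and are uncertain for that reason. The claudin gene CLDN4 rose from 2.79 ± 1.02 to 4.83 ± 2.32 CPM (0.76, SE 0.19), a call that ended without pair 3 (adjusted p = 0.18).

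Of 21 mesenchymal structural and matrix genes 18 were testable, of which 9 rose, 1 fell and 8 were not called, with a median of 0.23. Over all tested genes 9.07% rose and 7.14% fell. Among the 9 were CALD1 and COL1A2, whose losses are given above, and NT5E (0.21), whose call ended without pair 3 (adjusted p = 0.142). MMP2, which encodes a gelatinase, rose from 87.1 ± 23.4 to 239 ± 79 CPM (1.44, SE 0.0512), COL1A1 from 1025 ± 370 to 1819 ± 501 CPM (0.85, SE 0.0546), and SPARC from 333 ± 24.1 to 498 ± 55.7 CPM (0.58, SE 0.0502). The gene that fell was VIM, which encodes the intermediate filament vimentin, from 2075 ± 358 to 1874 ± 295 CPM (-0.14, SE 0.0471, edgeR adjusted p = 0.036), a call that ended without pair 2 (0.15) or pair 3 (0.38). The N-cadherin gene CDH2 was at 0.04 (SE 0.0482), and the contractile genes TAGLN and ACTA2 were scarce, at 0.802 and 3.19 CPM in control. Without pairs, the lowest adjusted p over all these lists was 0.073, for ITGA5.

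**Figure D5:**
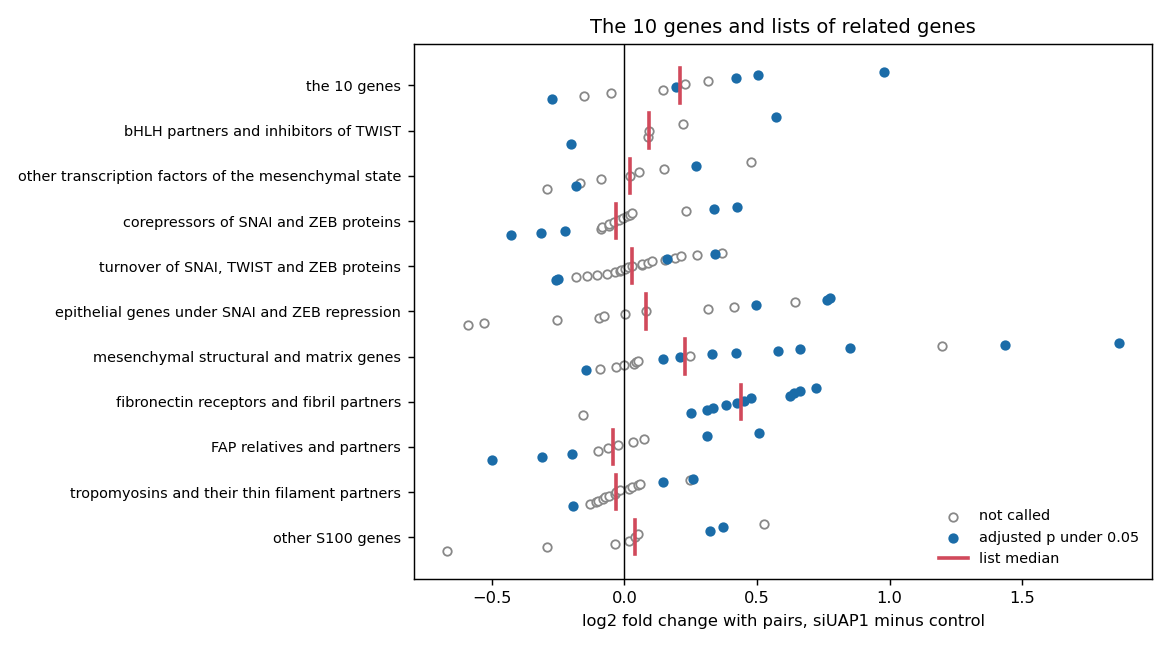
Log2 fold change with pairs (horizontal axis, siUAP1 minus control) of each testable gene in the 10 genes and in the lists of related genes, with filled points for adjusted p under 0.05 and a bar at each list's median. Of the lists drawn, which leave out the cell type markers, the fibronectin receptor list has the highest median at 0.44, and the medians of the corepressor, FAP relative and tropomyosin lists lie just below 0.

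Genes whose levels followed those of the called members most closely over the 6 libraries were found by the root mean square difference of centred log2 CPM, over 10333 candidates (protein-coding, mean CPM of 5 or more). Libraries shared by replicate number weigh in this measure. For FAP the nearest were the retinal reductase gene DHRS3 (0.172), COL1A1 (0.19) and the protease-activated receptor gene F2RL2 (0.214), where the median gene lay at 0.715. For SNAI2 they were the cytidine deaminase gene CDA (0.0653), the sterol enzyme gene MSMO1 (0.0863) and INSIG1 (0.0936), which holds back SREBP activation, with a median gene at 0.463. For TPM1 they were DNAH5, AHNAK2 and SCARB1 (0.0457 to 0.0579, median 0.301). For FN1 they were LXN, MYRF and SLC26A11 (0.0591 to 0.0842, median 0.431), and for ZEB1 MFSD9, TAF3 and TRIM13 (0.0298 to 0.0374, median 0.223).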

How the data were processed

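RNA of 6 libraries was analysed, 3 control and 3 siUAP1, grouped by their titles. The authors deposited raw counts per gene and FPKM per gene; the submitters' processing notes name GRCh38.p12 and DESeq2. The aligner, counter and strand setting are not given in the sources used. Coordinates are those of the deposited table, and 58724 of 58735 genes had the same ends in GENCODE 29. Counts were tested with edgeR 4.0.16 (R 4.3.3): TMM scaling, filterByExpr (minimum count 10), a quasi-likelihood fit and Benjamini-Hochberg adjustment over 15768 genes with a threshold of 0.05. SE is the log2 fold change divided by the root of F. Intervals cover 95% and are not adjusted. The script was tested on simulated data. Differences within pairs use log2 CPM with a prior count of 2. Printed CPM have no prior count.

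Same-numbered libraries' deviations from their group means correlated at 0.552, 0.454 and 0.584, those of different numbers at -0.434 to -0.0893. Deviations from a group mean sum to 0, so the negative values are in part forced. The titles carry the numbers, which were taken to pair the samples. Whether replicates were separate cultures is not stated, and the spread behind the p-values may be technical. Alternatives were other scalings, filters and tools (DESeq2 1.42.0, limma 3.58.1, FPKM on the log2(value + pseudocount) scale), the block, and leaving out each library or pair. The 10 genes and the lists were chosen with earlier results of these data known. The genes named are the 10, up to 4 per list by smallest p in either fit, and the 3 nearest per called gene; other list members named were chosen after their values were seen.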

Additional observations from a re-analysis of the deposited data

How the results depend on the processing

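Without pairs, 17 genes were called. The count became 19 with library totals, 21 with a mean CPM of at least 5, 12 with limma-voom, 273 with no filter beyond 1 count, 165 with DESeq2, and 2, 3 and 1 with limma on log2(FPKM + 1), log2(FPKM + 0.1) and log2(FPKM + 1) without filter. Leaving out 1 library left 1 to 3 genes. With the replicate block it was 2556, or 2587 with library totals, 2539 with RLE scaling and 1311 with DESeq2, and 2204, 1987 and 1195 without pair 1, 2 and 3.

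Of the 10 genes, 0 were called without pairs, except that 2 (FAP and SNAI2) passed with no filter beyond 1 count, where far more genes enter the fit. The replicate block called 5, also with library totals, RLE scaling or DESeq2, and 4 to 5 when a pair was left out, FN1 being lost without pair 3. FAP, SNAI2, TPM1, FN1, ZEB1, TWIST1 and TWIST2 kept their direction under every alternative run. Some of the values were very small in the fit on groups alone. FN1 was at 0.0095 without control replicate 3, and TWIST2 at 0.016 without siUAP1 replicate 1. The direction turned for S100A4 without siUAP1 replicate 1 (-0.37, in a range of -0.37 to 0.98 when 1 library was left out), for SNAI1 in the replicate block without replicate 1 (-0.15) and for ZEB2 without control replicate 1 (0.0091, in a range of -0.10 to 0.0091); none of these passed the threshold. Depth limits SNAI1 and S100A4 most, with as few as 36 and 48 counts in a library.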
